A study of Homo sapiens with 36 samples.

Results

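The genes described here are 10 members of the tumour necrosis factor (TNF) superfamily, followed in JEKO, MINO and UPN-1, which are cell lines established from human mantle cell lymphoma. They are the ligand genes LTB, LTA, TNF, CD70 and TNFSF9, the receptor genes CD40 and CD27, and the receptor genes TNFRSF13B, TNFRSF13C and TNFRSF17. The 10 members were taken by symbol from the 58302 gene IDs of the count tables. All 10 were found. The set was chosen by symbol with treated against DMSO fold changes of these libraries in view. The values of the members under GS716054 against DMSO are therefore given as a description. Where members that passed a test in these contrasts are counted, nothing is read from the counts.

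The lines had received GS716054, named in the labels as an inhibitor of the histone demethylase family KDM5, or the vehicle DMSO, and were harvested after 24 or 72 h. The dose was not given in the sources used here. Each of the 12 groups of line, treatment and time had 3 libraries, 36 in all, numbered as biological replicates. Each line is a single culture line, and nothing in the labels says whether the numbered replicates were separate cultures, so spread and p-values describe these libraries. All lines were kept in RPMI-1640 with 20% serum.

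As background, ligands of the TNF superfamily act as trimers at the cell surface or after release, and their receptors signal through TRAF adaptors to the NF-kappaB transcription factors or to cell death. Lymphotoxin beta (LTB) anchors lymphotoxin alpha (LTA) at the membrane, and the joint trimer binds the lymphotoxin beta receptor (LTBR), a pathway known for building lymphoid tissue. In B cells CD40 and CD27 carry costimulation, while TACI, the BAFF receptor and BCMA (genes TNFRSF13B, TNFRSF13C and TNFRSF17) bind the survival ligands BAFF and APRIL.

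Reads assigned to genes ranged from 8784815 to 14970876 per library (median 11926903). Levels are given in CPM, the read count scaled to a common library size, after scaling all libraries together with TMM. Such bulk levels cannot tell fewer expressing cells from less RNA per cell. Where genes are compared with each other, CPM was divided by the exon length in kilobases (CPM per kb). A count of 3, taken as the limit of detection in a library, was worth 0.196 to 0.353 CPM. The 4 B-cell markers MS4A1, CD79A, CD79B and PAX5 summed to 1180 to 4880 CPM and CCND1 with SOX11 1290 to 3440 CPM. The 4 T-cell markers summed to 0.642 to 9.1 CPM with CD2 at 0 in every library, the 4 myeloid markers to 0.337 to 8.56 CPM and the 3 NK-cell markers to 0 to 1.44 CPM. Libraries of replicate 2 of MINO at 72 h stood apart: the best correlation of either with any other library (r = 0.9745 over genes, with each other) was the lowest of the 36. Same-numbered libraries of both treatments were also each other's best match for replicates 1 and 2 of JEKO and of UPN-1 at 72 h. Replicate 1 of JEKO at 72 h had the lowest mean correlations with its groups (0.9692 and 0.9705). Results that rest on these libraries are given with and without them.

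LTB, LTA and TNF lie side by side on chromosome 6 (GENCODE v44, GRCh38). LTA occupies positions 31572054 to 31574324 and TNF positions 31575565 to 31578336 on the plus strand. LTB occupies positions 31580525 to 31582522 on the minus strand, 2188 bases beyond the end of TNF, and LTA and TNF are 1240 bases apart. The DNA before their starts is shown because the 3 genes lie together, were all far higher in MINO than in the other lines, and had higher means with GS716054 there. Windows of 250 bases before the RefSeq start (GRCh38.p14) were searched, and the stretch outside the annotated gene body is printed 5′ to 3′ on the strand of the gene, with motif matches in capitals. The LTB stretch is chr6:31582523-31582675 on the minus strand, the LTA stretch chr6:31571849-31572053 and the TNF stretch chr6:31575315-31575564, both on the plus strand.
LTB: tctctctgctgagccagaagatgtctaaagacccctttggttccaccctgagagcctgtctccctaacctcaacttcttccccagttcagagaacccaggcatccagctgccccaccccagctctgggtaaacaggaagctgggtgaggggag
LTA: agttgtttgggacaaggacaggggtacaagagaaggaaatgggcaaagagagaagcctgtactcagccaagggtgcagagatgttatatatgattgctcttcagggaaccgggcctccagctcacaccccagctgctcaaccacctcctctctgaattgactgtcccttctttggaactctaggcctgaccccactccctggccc
TNF: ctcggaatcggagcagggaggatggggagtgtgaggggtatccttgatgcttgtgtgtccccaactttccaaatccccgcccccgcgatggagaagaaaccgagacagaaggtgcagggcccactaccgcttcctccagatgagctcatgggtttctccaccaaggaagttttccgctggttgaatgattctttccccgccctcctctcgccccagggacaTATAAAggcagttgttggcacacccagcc

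A total of 3 motifs was searched on both strands: the NF-kappaB consensus of 10 letters, the TATA box TATAAA and the E-box CACGTG. None of these letters overlapped another match in the 3 windows. TNF carried TATAAA 29 bases before its start, a match found in 11.1% of 27305 windows of equal length before gene starts. The window of LTB held 1 NF-kappaB match, GGAAAGTCCC as read on the strand of LTB (the consensus reads on the opposite strand), beginning 86 bases before the RefSeq start. That match lies in the part of the window that GENCODE counts as the LTB gene body, so it is outside the printed stretch. An NF-kappaB match occurred in 6.6% of windows and CACGTG in 6.49%. The LTA window held none of the 3 motifs. A match of letters is a description and not a measured binding site.

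In vehicle-treated cells at 24 h the lymphotoxin and TNF genes set MINO apart from the other lines. LTB, the membrane anchor of lymphotoxin, was at 23.6, 39.8 and 24 CPM in the MINO DMSO libraries, at 1.43, 0.925 and 0.664 CPM in JEKO and at 1.06, 0.749 and 0.366 CPM in UPN-1. No MINO library overlapped a library of the other lines. LTB was 29.9 times as abundant in MINO as in JEKO (939 against 36 reads; exact 95% interval 21.5 to 43) and 43.2 times as abundant as in UPN-1 (23 reads; 28.6 to 68.4). These intervals cover counting error only. LTA, the soluble lymphotoxin, gave 305 reads in the 3 MINO libraries against 2 reads in JEKO and 2 reads in UPN-1. The ratios were 175 (48.1 to 1450) and 161 (44.3 to 1340). TNF itself gave 584 reads in MINO, 8 in JEKO (ratio 83.8, 42.2 to 195) and 1 in UPN-1 (ratio 617, 110 to 24400). Over all 12 libraries of a line, treated ones included, LTB never exceeded 1.43 CPM in JEKO and 3.22 CPM in UPN-1, LTA never exceeded 0.609 and 1.18 CPM, and TNF never exceeded 0.357 and 0.411 CPM.

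The other 7 members were detected well in every line. Over all 36 libraries and 17980 genes tested, edgeR's quasi-likelihood test with Benjamini-Hochberg adjustment called 6 members higher in MINO than in JEKO and 0 lower, where 22% of all genes tested were called higher and 48% either way. Besides LTB (log2 fold change 4.86, SE 0.471, adjusted p = 4.26e-10), LTA and TNF these were CD40 (0.87, SE 0.239, adjusted p = 0.00305), TNFRSF13C (0.97, SE 0.209, adjusted p = 0.000252) and TNFRSF17 (1.28, SE 0.417, adjusted p = 0.0119). LTA and TNF passed the count filter of this fit through MINO, so their calls were fixed by the filter, and nothing is read from the count of 6 against the background. CD70, the ligand of CD27, was not called (183.6 against 148.4 CPM, adjusted p = 0.226). CD27, the receptor of CD70, was at 28.1, 31.2 and 28.2 CPM in MINO and at 50.1, 58.6 and 53.3 CPM in JEKO. The CD27 values did not overlap, and the difference missed the threshold (-0.89, SE 0.422, adjusted p = 0.0818 by edgeR).

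UPN-1 had the lowest group means of all 10 members except LTA. The reads of LTA and TNF were too few to order UPN-1 and JEKO, and LTB and TNFRSF13C overlapped between these lines. Against MINO all 10 members were called lower in UPN-1 by edgeR, where 21.1% of genes tested were called lower and 44.4% either way. LTA and TNF were again tested only because MINO was high, so nothing is read from the count. The log2 fold changes were -0.97 for CD70 (adjusted p = 0.00028), -1.23 for TNFRSF13C (adjusted p = 1.4e-05), -1.89 for TNFRSF13B (adjusted p = 2.11e-06) and -2.06 for CD40 (adjusted p = 4.88e-08). The CD27 call (-1.28, adjusted p = 0.0186 by edgeR) was lost without UPN-1 DMSO replicate 1 (adjusted p = 0.0503) or replicate 3 (adjusted p = 0.076). Against JEKO 5 members were called lower in UPN-1, where 23.8% of genes were called lower and 44.9% either way. They were CD70 (-0.67, adjusted p = 0.00924), TNFSF9 (-1.40, adjusted p = 5.87e-06), CD40 (-1.19, adjusted p = 0.000214), CD27 (-2.17, adjusted p = 0.000163) and TNFRSF13B (-1.56, adjusted p = 3.44e-05), all by edgeR. The DMSO libraries of these line comparisons also serve as controls in the treatment comparisons.

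**Figure D1:**
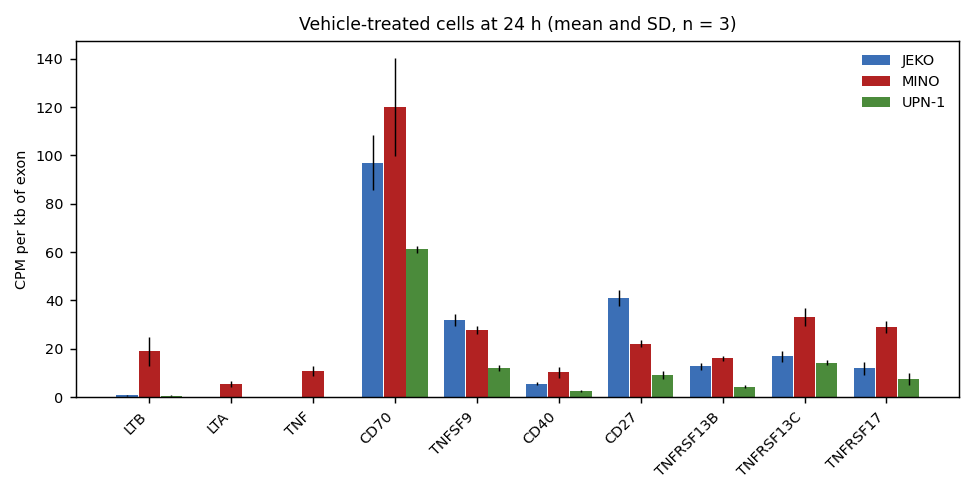
Mean level (bars, CPM per kb of exon) and SD (error bars, n = 3) of the 10 members in DMSO-treated JEKO, MINO and UPN-1 cells at 24 h. CD70 is the tallest bar in each line, and LTB, LTA and TNF are visible in MINO while they lie near 0 in the others.

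Per kb of exon, CD70 led the members in each line, at 97 ± 11.4 CPM per kb in JEKO, 120 ± 20.4 CPM per kb in MINO and 61.1 ± 1.34 CPM per kb for UPN-1 (mean ± SD, n = 3, DMSO at 24 h). In no line did its lowest library overlap the next gene. The order below it differed between lines. In JEKO CD27 followed at 40.9 ± 3.25 CPM per kb and TNFSF9 at 31.8 ± 2.53 CPM per kb, without overlap. In MINO TNFRSF13C (33.1 ± 3.62), TNFRSF17 (28.8 ± 2.49) and TNFSF9 (27.7 ± 1.7) followed CD70, the first overlapping the second and the second the third, so these neighbouring ranks lie within the spread. TNFSF9 did not overlap CD27, the next gene. In UPN-1 TNFRSF13C (14.1 ± 1.03) and TNFSF9 (12 ± 1.26) overlapped likewise. LTB stood sixth in MINO at 19 ± 6 CPM per kb, its libraries overlapping those of CD27 (22.1 ± 1.35) and TNFRSF13B (16 ± 1.06). After 72 h of GS716054 LTB was first in MINO, at 280 ± 60.3 CPM per kb against 119 ± 8.81 for CD70.

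The treated MINO libraries held more LTB than every DMSO library of that line at both times. At 24 h LTB was at 23.6, 39.8 and 24 CPM with DMSO and at 109, 218 and 99 CPM with GS716054. After 72 h the values were 25.7, 36.4 and 36.6 CPM with DMSO and 408, 532 and 351 CPM with GS716054. The 24 h group means were 29.15 ± 9.2 and 141.8 ± 65.8 CPM, and the 72 h means 32.87 ± 6.24 and 430.5 ± 92.6 CPM (SD, n = 3). The log2 fold changes were 2.25 (SE 0.311), a ratio of 4.75, and 3.70 (SE 0.327), a ratio of 13. Within numbered pairs the LTB ratio was 4.6, 5.47 and 4.12 at 24 h and 15.9, 14.6 and 9.6 at 72 h. Leaving out replicate 2 of both 72 h groups gave a log2 fold change of 3.58.

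LTA and TNF were also higher with GS716054 in MINO, by smaller ratios than LTB. LTA was at 7.06, 11.4 and 9.86 CPM with DMSO and at 14.9, 24.9 and 16 CPM with GS716054 at 24 h, without overlap (log2 fold change 0.94, SE 0.398). At 72 h LTA was at 7.3, 21.9 and 8.03 CPM with DMSO and at 21.9, 36.6 and 18.8 CPM with GS716054, and the groups overlapped through DMSO replicate 2 (1.06, SE 0.392). Without DMSO replicate 2 alone the LTA value was 1.69, without treated replicate 2 alone 0.73, and without replicate 2 of both groups it was 1.38. TNF, the founding inflammatory cytokine of the family, was at 13.9, 20.4 and 20.1 CPM with DMSO and at 28.2, 41.2 and 36.3 CPM with GS716054 at 24 h (0.93, SE 0.291). At 72 h TNF was at 14.6, 9.95 and 12.8 CPM with DMSO and at 57, 36.9 and 23.1 CPM with GS716054 (1.63, SE 0.296). The TNF groups did not overlap at either time. At 72 h treated replicate 1 was the highest library.

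In JEKO and UPN-1 the 3 genes stayed far below their MINO levels with either treatment. LTB in UPN-1 at 72 h was nevertheless above the detection limit in all 6 libraries. LTB in JEKO was at 0.506, 0.632 and 0.591 CPM with DMSO and at 0.744, 0.0722 and 0.481 CPM with GS716054 at 72 h. In UPN-1 it was at 2.14, 1.82 and 0.492 CPM with DMSO and at 1.57, 3.22 and 0.467 CPM with GS716054 at 72 h. The groups overlapped in both lines, and the log2 fold changes were -0.40 (SE 0.744) and 0.26 (SE 0.606). The JEKO value moved to -1.09 without replicate 1 of both groups and to 0.09 without treated replicate 2. The UPN-1 value ranged from -0.52 without treated replicate 2 to 0.69 without treated replicate 3. A change in LTA or TNF was not detectable at this depth in JEKO or UPN-1, where both genes were under the count filter.

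**Figure D2:**
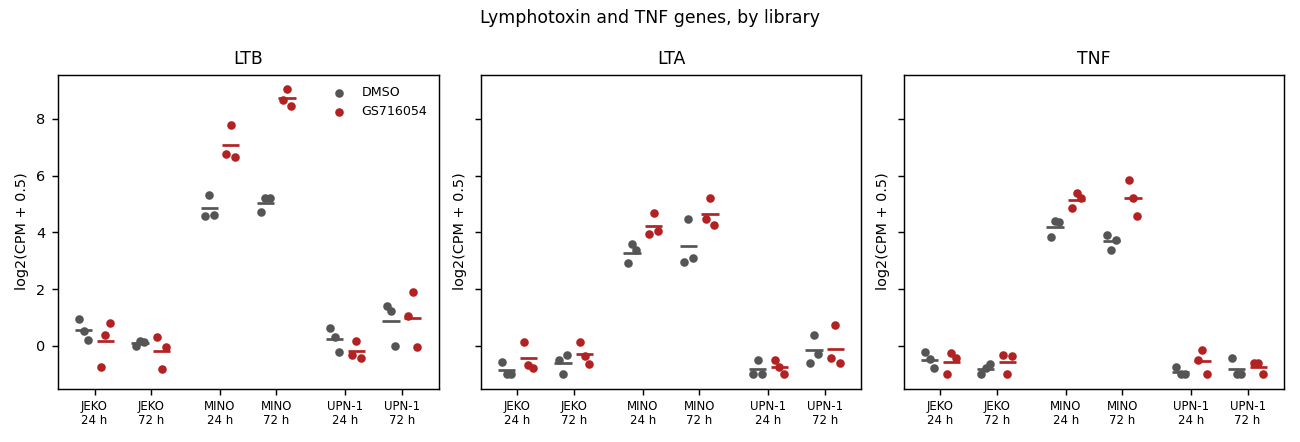
Levels of LTB, LTA and TNF as log2(CPM + 0.5) in each of the 36 libraries (points) with group means (lines), by line and time, for DMSO and GS716054. LTB in MINO runs from 23.6 to 532 CPM, with all treated libraries above all DMSO libraries of their time, while JEKO and UPN-1 libraries reach at most 1.43 and 3.22 CPM.

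With all libraries kept, CD70 and TNFSF9, ligands of the costimulatory receptors CD27 and 4-1BB, showed no treated shift that held at both times in MINO. For both genes the 72 h value depended on replicate 2. At 24 h CD70 was at 150, 212 and 188 CPM with DMSO and at 225, 261 and 251 CPM with GS716054 (log2 fold change 0.39, SE 0.243). The 72 h values were 162, 352 and 172 CPM with DMSO and 174, 197 and 174 CPM with GS716054 (-0.34, SE 0.243). The 72 h value rested on DMSO replicate 2, since without that library it was 0.07 and without replicate 2 of both groups 0.03. Without DMSO replicate 1 it was -0.53. TNFSF9 in MINO was at 45, 48.2 and 42.7 CPM with DMSO and at 70.2, 83.4 and 71.1 CPM with GS716054 at 24 h (0.70, SE 0.296). At 72 h TNFSF9 was at 43.7, 106 and 43.2 CPM with DMSO and at 62.8, 91.3 and 54.5 CPM with GS716054, with overlap through DMSO replicate 2 (0.11, SE 0.293). Without that DMSO library the TNFSF9 value was 0.63, without treated replicate 2 it turned to -0.13, and without replicate 2 of both groups it was 0.40.

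TNFSF9 was the member whose treated JEKO libraries lay above the DMSO libraries at both times. It was at 49, 56.7 and 50.4 CPM with DMSO and at 71.7, 70.3 and 70.9 CPM with GS716054 at 24 h (0.44, SE 0.128). At 72 h it was at 80.4, 82.8 and 76.7 CPM with DMSO and at 102, 122 and 92.1 CPM with GS716054 (0.40, SE 0.127). CD70 overlapped between treatments in JEKO and in UPN-1 at both times, with log2 fold changes from -0.09 to 0.19, and TNFSF9 overlapped in UPN-1.

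CD40, the receptor through which T cells license B cells, differed in opposite directions in MINO and JEKO at 72 h. In MINO CD40 was at 57.6, 61.3 and 59.9 CPM with DMSO and at 116, 104 and 101 CPM with GS716054 (log2 fold change 0.83, SE 0.185). In JEKO it was at 51.8, 44.3 and 54.1 CPM with DMSO and at 33.8, 33.8 and 32.7 CPM with GS716054 (-0.58, SE 0.148). Neither pair of groups overlapped. At 24 h CD40 in MINO was at 46.1, 71.8 and 53.8 CPM with DMSO and at 91.1, 142 and 100 CPM with GS716054 (0.93, SE 0.185). In JEKO the 24 h groups overlapped (-0.06), and in UPN-1 the groups overlapped at both times (0.08 and 0.03).

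CD27 in MINO was at 28.1, 31.2 and 28.2 CPM with DMSO and at 46.7, 71.5 and 50.7 CPM with GS716054 at 24 h, without overlap (log2 fold change 0.92, SE 0.518). At 72 h CD27 was at 23.2, 102 and 23.2 CPM with DMSO and at 89.8, 249 and 98.8 CPM with GS716054 (1.56, SE 0.517). Replicate 2 was the highest library of both 72 h groups, and its DMSO value overlapped the treated ones. Within numbered pairs the CD27 ratio at 72 h was 3.87, 2.44 and 4.25. The log2 fold change was 1.99 without replicate 2 of both groups, 2.59 without the DMSO library alone and 0.95 without the treated library alone. In JEKO CD27 was at 50.1, 58.6 and 53.3 CPM with DMSO and at 46.5, 35.3 and 48.6 CPM with GS716054 at 24 h, lower without overlap (-0.33), and the groups overlapped at 72 h (0.40).

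The exons of CD27 on chromosome 12 (positions 6444955 to 6451718, plus strand) overlap those of the antisense gene CD27-AS1 over 42.5% of their length. The sources used here do not say whether counting used the strand, so reads of the pair cannot be told apart. CD27-AS1, named after its values were seen, was at 22.5 ± 2.81 CPM with DMSO and 42.7 ± 9.95 CPM with GS716054 in MINO at 24 h. Its 72 h means were 36.3 ± 29.2 and 97.6 ± 56.8 CPM (SD, n = 3).

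**Figure D3:**
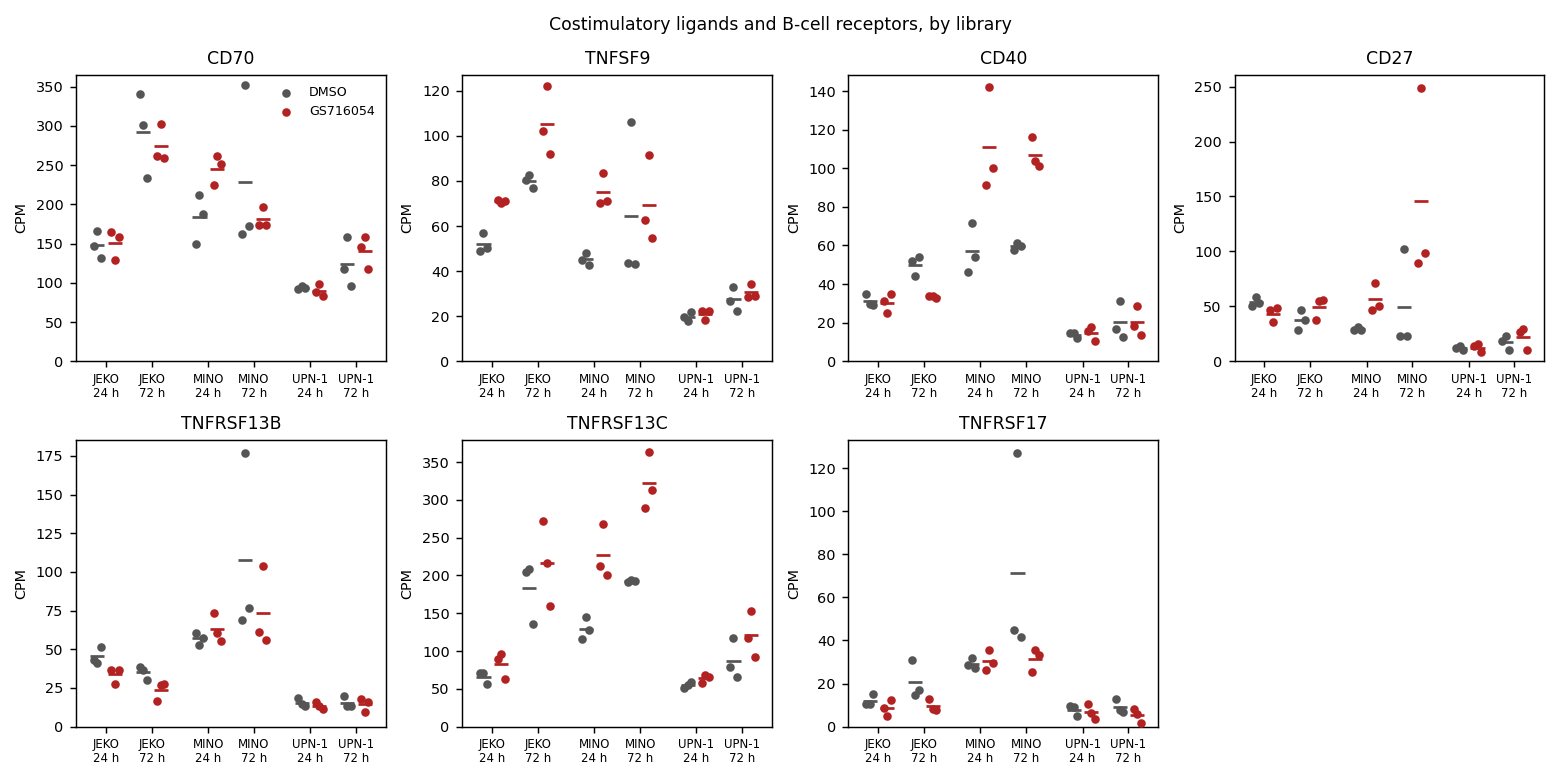
Levels in CPM of CD70, TNFSF9, CD40, CD27, TNFRSF13B, TNFRSF13C and TNFRSF17 in each of the 36 libraries (points) with group means (lines), for DMSO and GS716054. In MINO at 72 h a single DMSO library, replicate 2, lies far above the others for CD70 (352 CPM), TNFSF9 (106), CD27 (102), TNFRSF13B (177) and TNFRSF17 (127).

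The receptors of BAFF and APRIL did not move as a group in MINO. TNFRSF13C, the BAFF receptor, was at 116, 145 and 128 CPM with DMSO and at 213, 268 and 201 CPM with GS716054 at 24 h (log2 fold change 0.78, SE 0.141). At 72 h it was at 192, 194 and 193 CPM with DMSO and at 289, 364 and 313 CPM with GS716054 (0.72, SE 0.141). All treated libraries lay above all DMSO libraries at both times. TNFRSF13B, which encodes TACI, overlapped at both times (0.12 and -0.55). Its 72 h DMSO libraries were at 69.1, 177 and 76.8 CPM against 61.2, 104 and 56 CPM with GS716054, and the difference was -0.04 without DMSO replicate 2 and -0.87 without treated replicate 2. About 17.3% of its exon length is shared with TBC1D27P and another gene model on the same strand, which makes its counts less certain.

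TNFRSF17, which encodes the plasma-cell receptor BCMA, was lower with GS716054 at 72 h in MINO and in JEKO. In MINO it was at 45.1, 127 and 41.5 CPM with DMSO and at 25.4, 35.7 and 33.2 CPM with GS716054 (log2 fold change -1.18, SE 0.337). The DMSO library at 127 CPM was replicate 2, and without it the value was -0.51, while without replicate 2 of both groups it was -0.59. In JEKO TNFRSF17 was at 30.9, 14.7 and 17.1 CPM with DMSO and at 13, 8.16 and 7.77 CPM with GS716054 (-1.11, SE 0.338), or -0.99 without replicate 1 of both groups and -0.72 without DMSO replicate 1 alone. Neither line's groups overlapped. In UPN-1 it was at 12.6, 7.72 and 6.72 CPM with DMSO and at 8.22, 5.65 and 1.87 CPM with GS716054, with overlap (-0.76). Within numbered pairs the ratio there was 0.653, 0.732 and 0.278. At 24 h the groups overlapped in each of the 3 lines.

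TNFRSF13B was lower with GS716054 in JEKO, at 42.9, 41.3 and 51.7 CPM against 36.8, 27.8 and 36.5 CPM at 24 h (log2 fold change -0.44). At 72 h it was at 38.2, 36.6 and 30.3 CPM with DMSO against 16.8, 26.8 and 27.6 CPM with GS716054 (-0.56). The groups did not overlap at either time. Without replicate 1 of both 72 h groups the value was -0.29. TNFRSF13C overlapped in JEKO (0.31 and 0.24) and in UPN-1 (0.20 and 0.49). Within numbered pairs its treated value was nevertheless the higher one in every pair of both lines. The pair ratios of TNFRSF13C in UPN-1 at 72 h were 1.49, 1.3 and 1.42.

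**Figure D4:**
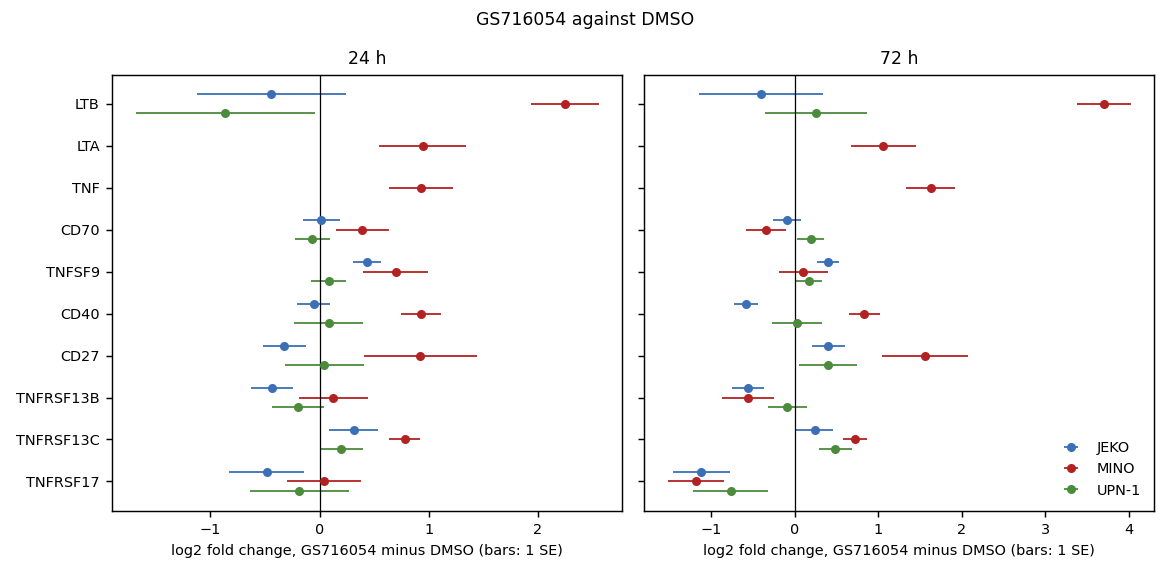
Log2 fold change of GS716054 against DMSO (points) with 1 SE (bars) for each member tested, by line, at 24 h and 72 h. LTB in MINO lies farthest from 0 at both times (2.25 and 3.70), and LTA and TNF appear in MINO alone because they were under the count filter in JEKO and UPN-1.

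Counted over members tested, 8 of 10 in MINO at 24 h had treated libraries wholly above DMSO and 0 wholly below, where 19.9% and 15.2% of all genes tested were separated in these ways. The 72 h counts were 4 above and 1 below, where 12.4% and 10% of genes were. In JEKO it was 1 above and 2 below of 8 at 24 h (background 7.03% and 5.51%) and 1 above and 3 below at 72 h (6.51% and 4.81%). In UPN-1 0 of 8 were separated at 24 h (14.8% of genes either way) and 0 at 72 h (8.94%). At an adjusted p under 0.05 in edgeR, 3 of 10 members passed in MINO at 24 h and 4 of 10 at 72 h, where 2.39% and 5.56% of genes did. None passed in JEKO at 24 h or 72 h (0.018% and 0.3% of genes) or in UPN-1 (0.0262% and 0.334%). At an unadjusted p under 0.05 the members counted 2 and 4 in JEKO and 0 and 1 in UPN-1, and DESeq2 passed 1 member, CD40 in JEKO at 72 h, in these 4 comparisons. Since these contrasts guided the choice of members, nothing is read from the counts. The same replicate numbers deviated together within a time in 5 of the 6 treatment comparisons, and a block for the number within each time raised the members passing to 7 and 8 in MINO. With it 2 members passed in JEKO (CD40 and TNFRSF17) and 2 in UPN-1 (TNFRSF13C and TNFRSF17), all at 72 h. The block also called more of all genes tested in each comparison, so the shares above do not apply, and nothing is read from these counts.

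Marker sums of the treated and DMSO libraries were separated for several lists, first in MINO. The summed B-cell markers were at 2450 to 3070 CPM with DMSO and 4590 to 4880 CPM with GS716054 at 24 h, and at 2280 to 2980 and 3900 to 4750 CPM at 72 h. The 4 plasma-cell markers (PRDM1, SDC1, XBP1 and IRF4) summed to 684 to 1380 CPM with DMSO and 464 to 684 CPM with GS716054 at 72 h. These ranges met at 684 CPM as rounded, and only 1 of the 4 genes had treated libraries wholly below DMSO. The 4 myeloid markers summed to 1.54 to 3.06 CPM with DMSO and 5.65 to 8.56 CPM with GS716054 at 24 h. Their 72 h sums were 0.538 to 1.24 CPM and 1.77 to 4.17 CPM. The 4 T-cell markers, of which CD2 was at 0, summed to 1.58 to 2.12 CPM with DMSO and 2.96 to 4.24 CPM with GS716054 at 24 h. The 4 stroma and epithelium markers (COL1A1, COL1A2, EPCAM and PECAM1) summed to 12.4 to 18.3 CPM with DMSO and 30 to 38.6 CPM with GS716054 at 72 h, where the endothelial and blood cell adhesion gene PECAM1 was called higher (log2 fold change 2.19, adjusted p = 0.00254 by edgeR). In JEKO the sum of CCND1 and SOX11 was at 2610 to 2770 CPM with DMSO and 1440 to 1810 CPM with GS716054 at 24 h, and at 2280 to 2920 and 1290 to 1990 CPM at 72 h. Taken singly, 1 of these 2 genes had treated libraries wholly below DMSO at each time, and the other overlapped. The T-cell markers in JEKO summed to 1.01 to 1.58 CPM with DMSO and 4.95 to 9.1 CPM with GS716054 at 72 h. The plasma-cell sums in JEKO overlapped at 72 h, at 229 to 304 CPM with DMSO and 156 to 256 CPM with GS716054. Taken singly, 2 of those 4 genes lay wholly above DMSO and 1 wholly below, and edgeR called PRDM1 higher. In UPN-1 CCND1 and SOX11 summed to 2480 to 2600 CPM with DMSO and 2040 to 2240 CPM with GS716054 at 24 h, and to 2140 to 2870 and 1540 to 2040 CPM at 72 h. At 24 h 1 of the 2 genes had treated libraries wholly below DMSO and the other wholly above. At 72 h 1 lay wholly below and the other overlapped. The summed B-cell markers in UPN-1 were at 2070 to 2120 CPM with DMSO and 2130 to 2200 CPM with GS716054 at 24 h. Their 72 h sums were 1720 to 1980 and 2020 to 2270 CPM, so this sum was separated upward in UPN-1 as well as in MINO. The stroma and epithelium markers in UPN-1 summed to 9.89 to 13.7 CPM with DMSO and 5.5 to 9.82 CPM with GS716054 at 24 h. The part of these shifts in the members' values was not tested.

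Time in vehicle alone moved several members in JEKO. Between 24 and 72 h of DMSO, edgeR's quasi-likelihood test called 4 of 8 members higher and 0 lower, where 17.1% of genes were called higher and 31.7% either way. CD70 rose from 147, 166 and 132 CPM to 341, 301 and 234 CPM (log2 fold change 0.98, SE 0.17, adjusted p = 0.00167 by edgeR). TNFRSF13C rose from 71.5, 70.6 and 56 CPM to 205, 209 and 136 CPM (1.47, SE 0.227, adjusted p = 0.00103 by edgeR). CD40 (0.68, SE 0.149, adjusted p = 0.00501) and TNFSF9 (0.62, SE 0.128, adjusted p = 0.00372) rose as well. No library at 72 h overlapped one at 24 h for these 4 genes, and the same 4 were called without replicate 1 of the 72 h groups. CD27 (-0.53, adjusted p = 0.0537) and TNFRSF17 (0.79, adjusted p = 0.0831) missed the threshold.

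In MINO and UPN-1 edgeR called 0 members between the DMSO times, where 0.0932% and 1.47% of genes were called. At an unadjusted p under 0.05 there were 3 members in each line, and DESeq2 called 2 in MINO and 1 in UPN-1. In MINO TNFRSF17 had a log2 fold change of 1.27 (SE 0.338, adjusted p = 0.113) and TNFRSF13C 0.57 (SE 0.141, adjusted p = 0.111). Both passed in edgeR once replicate 2 of the 72 h groups was left out, TNFRSF13C at 0.59 (adjusted p = 0.0125) and TNFRSF17 at 0.58 (adjusted p = 0.0214). In UPN-1 TNFRSF13C was at 51.3, 55.3 and 59.3 CPM at 24 h and 78.6, 117 and 65.5 CPM at 72 h (0.67, SE 0.198, adjusted p = 0.0785). It passed without UPN-1 DMSO 72 h replicate 3 (0.83, adjusted p = 0.00959). A test of whether the time difference itself differed between lines called 0 of the 10 members for JEKO against MINO, JEKO against UPN-1 or MINO against UPN-1, where 0.0278%, 0.178% and 0.0167% of genes were called. At an unadjusted p under 0.05 the members counted 4, 1 and 1 in edgeR. The effects of time are thus not shown to differ between the lines.

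The partners of the members were unevenly present. LTBR, the receptor of membrane lymphotoxin, gave 7 reads over all 36 libraries. CD40LG, the ligand of CD40, gave 2 reads and TNFRSF9, the 4-1BB receptor of TNFSF9, 35 reads. TNFSF13B, which encodes BAFF, gave 112 reads and reached at most 1.07 CPM. TNFRSF1B, a TNF receptor, had a median of 98.9 CPM in MINO, 20.1 CPM in JEKO and 6.57 CPM in UPN-1. TNFRSF1A, the other TNF receptor, had a median of 25.1 CPM in MINO, 13.8 CPM in JEKO and 0.414 CPM in UPN-1. CD70 and CD27, a ligand and its receptor, were both present in each line.

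Among the superfamily genes outside the 10, a single one passed in a treatment comparison in edgeR. Over all genes tested, 2.39% and 5.56% passed in MINO at 24 h and 72 h. The shares were 0.018% and 0.3% in JEKO and 0.0262% and 0.334% in UPN-1. With lists this short, nothing is read from the counts below against these shares. TNFSF13, which encodes APRIL, rose in MINO at 72 h from 3.349 to 6.897 CPM (log2 fold change 1.02, SE 0.262, adjusted p = 0.0397 by edgeR). TNFSF13 shares about 55.5% of its exon length with the gene model TNFSF12-TNFSF13 on the same strand, which makes its counts less certain. It was 1 of 6 ligand genes tested out of 13 listed, and the call was lost without replicate 2 of both groups (0.80, adjusted p = 0.0897) and in 4 of the 6 fits that left out 1 library, those without DMSO replicate 2 or 3 or treated replicate 1 or 2 (adjusted p 0.047 to 0.128 over the 6). None of the 13 tested receptor genes out of 24 listed passed in MINO at either time in edgeR, with 4 at 24 h and 2 at 72 h at an unadjusted p under 0.05 and 1 and 0 by DESeq2. In JEKO 0 of 5 ligand and 0 of 14 receptor genes passed and in UPN-1 0 of 2 and 0 of 11, at both times. At an unadjusted p under 0.05 JEKO had 0 ligand and 2 receptor genes at the first time and 1 and 3 at the second, while UPN-1 had 1 and 0, then 0 and 1. DESeq2 passed 1 of them, the receptor gene TNFRSF1A in JEKO at 72 h. With the block within each time, 4 of these other superfamily genes passed in MINO at 24 h and 5 at 72 h. That block also called more of all genes tested, so the shares above do not apply to it. The median log2 fold change of the ligands tested in MINO was 0.52 at 24 h and 0.61 at 72 h, and that of the receptors 0.11 and 0.07, against 0.01 and -0.03 over all genes tested.

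Of 18 adaptors and regulators of the pathway, 1 rose in MINO at 24 h and 2 at 72 h, and 0 fell. These are 5.56% and 11.1% of the list, where 2.39% and 5.56% of all genes tested were called. DESeq2 called 3 and 4, and edgeR with the block within each time 8 and 10. Both settings also called more of all genes tested, so the shares above do not apply to these counts. CYLD, a deubiquitinase that restrains NF-kappaB, rose from 55.75 to 92.12 CPM at 24 h (0.69, SE 0.159, adjusted p = 0.0406 by edgeR). At 72 h TRAF5, an adaptor of CD40 and CD27, rose from 31.4 to 53.36 CPM (0.75, SE 0.178, adjusted p = 0.029), and RIPK1, a kinase of TNF receptor signalling, from 15.87 to 28.59 CPM (0.83, SE 0.198, adjusted p = 0.0292), both by edgeR. CYLD lost its call when any single library of its 2 groups was left out (adjusted p 0.0828 to 0.246). At 72 h TRAF5 (adjusted p 0.0334 to 0.0921) and RIPK1 (0.0408 to 0.0945) each lost the call in 4 of the 6 fits that left out 1 library. TRAF5 lost it without DMSO replicate 2 or 3 or treated replicate 1 or 2, and RIPK1 without any one of the DMSO replicates or treated replicate 3. Without replicate 2 of both groups TRAF5 had an adjusted p of 0.065 and RIPK1 of 0.0306. The list's median log2 fold change was 0.42 at 24 h and 0.38 at 72 h. None of the 18 passed in JEKO or UPN-1 in edgeR. Only JEKO at 72 h had any at an unadjusted p under 0.05 (3), and DESeq2 called 3 there and 0 in the other treatment comparisons of these lines, as did the block within each time.

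On chromosome 6, genes beside LTB were also higher in treated MINO cells. Of 9 neighbouring genes listed, 8 were tested in MINO, and 0 passed at 24 h and 2 at 72 h in edgeR, where 2.39% and 5.56% of all genes tested were called. DESeq2 called 3 at each time, as did edgeR with the block within each time. Both settings also called more of all genes tested, so the shares above do not apply to these counts. At 24 h 3 neighbours had an unadjusted p under 0.05 in edgeR. NCR3, known as an activating receptor of NK cells, rose from 3.908 to 31.05 CPM at 72 h (2.99, SE 0.395, adjusted p = 0.00156 by edgeR). AIF1, known from macrophages, rose from 5.554 to 27.15 CPM (2.29, SE 0.254, adjusted p = 0.000465). The summed NK-cell markers in these MINO libraries were at most 0.214 CPM with DMSO and 0.181 CPM with GS716054, and the summed myeloid markers at most 1.24 and 4.17 CPM. The part of the latter in AIF1 was not tested. LST1, the gene next to LTB at a distance of 3601 bases, was at 0.3382 CPM with DMSO and 1.518 CPM with GS716054 (2.24, SE 0.629, adjusted p = 0.0564). That DMSO mean lay near the limit of detection, and LST1 passed the count filter through other MINO libraries. Its fold change is therefore uncertain, and nothing is read from its p. On the far side NFKBIL1, 13224 bases before LTA, had a log2 fold change of -0.18 (adjusted p = 0.83), and PRRC2A and BAG6, beyond AIF1, had 0.08 and 0.07, all by edgeR. No neighbour passed in JEKO or UPN-1, where NCR3 and LST1 were under the count filter. At an unadjusted p under 0.05 there was 1 neighbour at 72 h in each of these lines and 0 at 24 h, and DESeq2 called 1, in UPN-1 at 72 h. AIF1 at 72 h had a log2 fold change of 1.04 (adjusted p = 0.231) in JEKO and 0.92 (adjusted p = 0.114) in UPN-1, and passed in UPN-1 with the block within each time.

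**Figure D5:**
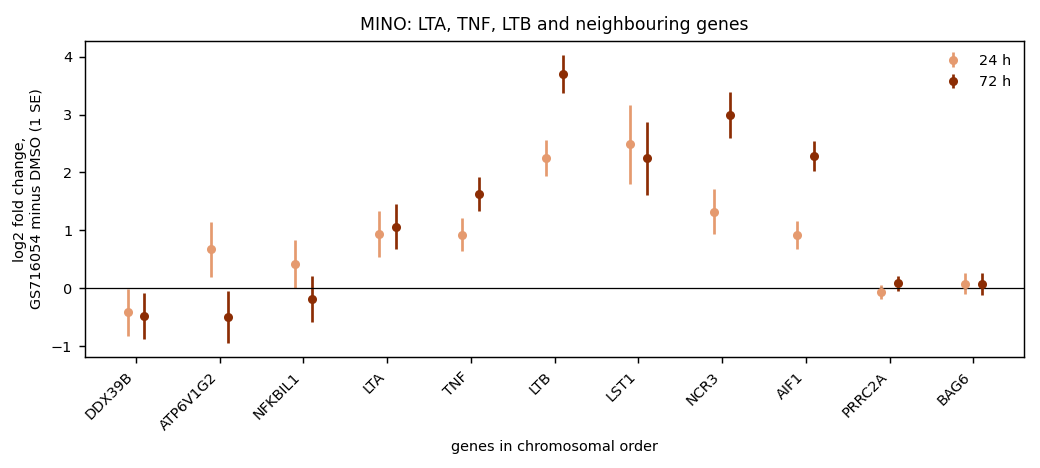
Log2 fold change of GS716054 against DMSO in MINO (points) with 1 SE (bars) at 24 h and 72 h for the tested genes around LTB, in chromosomal order and evenly spaced. Values at 72 h are highest for LTB (3.70), NCR3 (2.99) and AIF1 (2.29), and those of NFKBIL1, PRRC2A and BAG6 lie near 0.

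The genes whose group means followed LTB most closely were found over the 12 groups, on log2(CPM + 0.5) centred within each line, among 13764 genes. They were IKZF3 (Pearson r = 0.979), TLE5 (0.96), GPSM3 (0.9593), NCR3 (0.9451) and EPHB6 (0.9427). The 12 points share lines and libraries, so these values are descriptions without a p. LTB reached at most 1.43 CPM in JEKO and 3.22 CPM in UPN-1, so the correlations rest mainly on the MINO groups. These include treated values that were in view when the members were chosen. IKZF3, a lymphoid transcription factor, ran from -0.29 with DMSO at 24 h to 0.5 with GS716054 at 72 h around its MINO mean. Among the members CD27 came closest (0.94, seventh of all genes), followed by LTA (0.842), TNF (0.796) and CD40 (0.755). TNFRSF17 had r = -0.256 and CD70 0.0155.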

How the data were processed

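RNA sequencing libraries of 3 cell lines were deposited by the authors as whole-number read counts per Ensembl gene, 1 table per library. Per the submitters' processing notes, HISAT2 2.2.1, HTSeq 0.13.5 and GRCh38 were used. The sources used here give no strand setting, annotation release or library type. Per the labels, RNA came from a Qiagen kit. Reads in no feature (43.25% to 45.93%) were left out. Names for 57532 of 58302 IDs, exon lengths and positions came from GENCODE v44, sequences from RefSeq (GRCh38.p14).

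Counts were tested in R 4.3.3 with edgeR 4.0.16 (quasi-likelihood, TMM, filterByExpr with minimum count 10 and total 15, Benjamini-Hochberg under 0.05). Each line's 12 libraries made 1 fit with 8 residual degrees of freedom, and line comparisons used all 36 libraries. Tests covered 16690 genes in JEKO, 15028 in MINO, 15248 in UPN-1 and 17980 overall. The standard error is the log2 fold change over the root of F. The procedure was tested on simulated data. Alternatives were DESeq2 1.42.0, its size factors, no filter, replicate blocks and left-out libraries.

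Same-numbered libraries deviated together within a time (correlation 0.131 to 0.621 for every pair, except in JEKO at 24 h, 0.0547 to 0.261), but not in every pair between DMSO times (-0.0578 to 0.196). In MINO at 72 h differently numbered libraries did so too. Treated replicate 1 with DMSO replicate 3 had 0.376 and treated 3 with DMSO 1 had 0.243, against 0.322 for replicate 3 with itself across treatments. The block within each time and leaving out both libraries of 1 number were chosen after seeing the data. All members were named, with up to 4 called genes of largest change per further list. A further B-cell marker is not reported here. The members and lists were chosen with earlier results of these data known.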

Additional observations from a re-analysis of the deposited data

Results flagged for a closer look

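CD40 at 72 h had a log2 fold change of -0.58 for GS716054 against DMSO in JEKO and 0.83 in MINO, with all treated libraries below DMSO in the first line and all above it in the second. CD27 at 24 h likewise had -0.33 in JEKO and 0.92 in MINO. In both cases the groups moved in opposite directions without overlap, and the difference between the lines was not tested. Of all genes tested, 4.81% were wholly lower in JEKO and 12.4% wholly higher in MINO at 72 h. At 24 h these shares were 5.51% and 19.9%. The CD27 value in JEKO ranged from -0.42 to -0.19 when 1 library was left out. Reads of CD27 cannot be told apart from those of CD27-AS1.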

How the results depend on the processing

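Genes called in the treatment comparisons depended on the setting. Without the low-count filter the counts were 44 and 355 in JEKO (24 h, then 72 h), 1053 and 1492 in MINO and 36 and 231 in UPN-1, and with DESeq2 they were 31, 227, 936, 1557, 21 and 164 in the same order. With 1 replicate block over both times they were 8, 113, 994, 1536, 12 and 223, and with a replicate block within each time 15, 557, 2373, 3029, 228 and 1139. Between the DMSO times MINO had 1727 genes without the filter, 981 with DESeq2 and 1819 with the replicate block, and UPN-1 1845, 1026 and 2784. Without both libraries that stood apart the counts were 27 in JEKO and 2192 in MINO at 72 h, and 2028 between the MINO DMSO times. DESeq2's size factors within edgeR kept each of these counts within 1.5 times.

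Counts of members passing changed as well. JEKO at 72 h had 1 without the filter, 1 with DESeq2 and 2 with the block within each time. MINO at 24 h had 7 without the filter and 7 with the block within each time. MINO at 72 h had 7 without the filter, 7 with 1 replicate block, 8 with the block within each time and 8 without replicate 2. UPN-1 at 72 h had 2 with the block within each time. Between DMSO times MINO had 4 without the filter, 2 with DESeq2, 2 with the replicate block and 2 without replicate 2, and UPN-1 2, 1 and 3 with the first 3 settings. Of the other superfamily genes, JEKO at 72 h had 1 without the filter, with DESeq2 or with the block within each time, and MINO at 24 h had 3, 1 and 4. MINO at 72 h had 2 without the filter and 5 with the block within each time, and UPN-1 at 72 h had 2 with that block. CD27 in MINO against JEKO passed without the filter (adjusted p = 1.85e-05) and with the replicate block (adjusted p = 0.0283), where the numbers were not shown to pair the lines. The cause was not tested.

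Leaving out 1 library at a time gave 0 to 1 genes called in JEKO at 24 h, 15 (without DMSO replicate 3) to 52 at 72 h, 27 (without treated replicate 2) to 91 in MINO at 24 h, and 358 (without DMSO replicate 3) to 1518 (without DMSO replicate 2) at 72 h. In UPN-1 it gave 2 to 5 at 24 h and 5 (without DMSO replicate 1) to 139 (without DMSO replicate 2) at 72 h. Between DMSO times the ranges were 2717 (without 24 h replicate 3) to 4914 in JEKO, 4 (without 24 h replicate 1 or 3) to 235 (without 24 h replicate 2) in MINO and 1 (without 24 h replicate 1) to 3084 (without 72 h replicate 3) in UPN-1. Members passing ranged from 1 to 2 in MINO at 24 h, 3 to 7 at 72 h, and between DMSO times from 4 to 6 in JEKO and 0 to 3 in UPN-1, and other superfamily genes in MINO at 72 h from 0 to 1. A group left with 2 libraries is assumed to vary like the other groups.

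Members that were not called between DMSO times changed sign in MINO when 1 library was left out: LTA (-0.29 to 0.63), CD70 (-0.12 to 0.50), TNFSF9 (-0.04 to 0.71), CD40 (-0.07 to 0.25) and CD27 (-0.31 to 1.09). The first 2 and TNFSF9 and CD27 gave their negative values without replicate 2, alone or in both groups. In UPN-1 TNFRSF13B (-0.21 to 0.16) and TNFRSF17 (-0.08 to 0.42) did so, as did LTA in UPN-1 against JEKO (-2.65 to 2.75), where it rests on 2 reads in each group. LTB in MINO lay between 1.79 and 2.54 at 24 h and between 3.52 and 3.81 at 72 h.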
